A study of Mus musculus with 4 samples.

Results

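The nuclear receptor genes on a mouse liver array were described in livers of PPARα-null and wild-type mice that were fasted or fed. The 44 genes were taken by gene symbol as members of the nuclear receptor superfamily, and 42 of them had a probe set of their own on the array, out of 12393 genes with one in the series. Of the 42, 22 were measured, which here means above a floor of 16 intensity units on at least 1 array, against 6947 measured genes in the whole series. The other 20 were at the floor on all 4 arrays, and Nr1h2 and Nr3c2 were not analysed here.

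Liver RNA came from 4 groups of male mice aged 12 to 20 weeks and kept on chow, and each group was 1 Affymetrix MOE430A array of RNA pooled from 5 mice. The groups were fasted PPARα-null, fasted wild-type, fed PPARα-null and fed wild-type, with a fast of 24 hours. The null mice belonged to the substrain 129S4/SvJae and the wild-type mice to the substrain 129S1/SvImJ (129Sv in the array labels). The null mice lacked PPARα in all tissues, and genotype and substrain cannot be told apart. Each group was 1 array, so no difference had a replicate check and no p-value was computed. A difference was called when it reached 1.5-fold on the GCRMA intensities, the threshold that the study applied to pooled arrays. Folds against an array at the floor are bounds, given as at least so many fold.

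Nuclear receptors are transcription factors with a shared DNA-binding domain, and many are switched by small fat-soluble ligands such as steroids, retinoids, thyroid hormone, fatty acids and bile acids. A large class, including PPARα, the farnesoid X receptor and the xenobiotic receptors, binds DNA as a heterodimer with the retinoid X receptor, while orphan members such as HNF4α and LRH-1 bind without it. In liver they set the transcription of fatty acid oxidation, bile acid, drug metabolism and clock genes, and PPARα is best known for the oxidation of fatty acids during fasting.

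The arrays were alike in overall brightness. Their medians lay between 14.4 and 14.6 units, and 23.0% to 23.7% of probe sets reached 64 units. GCRMA normalizes quantiles, so likeness of this kind follows largely from the processing and is no check of the RNA. The 3′ to 5′ signal ratio of Gapdh was between 0.953 and 1.06, and that of Actb was 2.45 and 2.44 in fasted null and fasted wild-type liver and 2.22 and 2.13 in fed null and fed wild-type liver. All 8 hepatocyte marker genes with a probe set of their own were above the floor on all arrays, with summed intensities of 110819, 94413, 86171 and 87147 units in fasted null, fasted wild-type, fed null and fed wild-type liver. Different probe sets of 1 gene scattered with an SD of 0.37, 0.21, 0.46 and 0.29 on the log2 scale for fasted null over fasted wild-type, fed null over fed wild-type, fasted over fed null and fasted over fed wild-type, over 2475 genes. A receptor difference of that size is within the scatter between probe sets.

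In fasted liver, 9 of the 22 measured receptors were at least 1.5-fold apart between the genotypes. Pparg, Nr0b2, Nr1i2, Rora and Nr4a1 were higher in null mice, 22.7% of the receptors, where 8.58% of all measured genes were higher. Ppara, Nr1h4, Nr5a2 and Nr2f2 were lower in null mice, 18.2% of the receptors, where 13.6% of all measured genes were lower. Ppara is the gene disrupted in the null mice, so its genotype call is tied to the design and says nothing about the other receptors. The median absolute log2 difference of the receptors was 0.31, against 0.26 over all measured genes. Macrophage markers moved in the same comparison. Of 11 measured genes that mark Kupffer cells or other macrophages, fasted null liver had 8 higher and 0 lower, with summed intensities over the 12 listed of 1212 units in fasted null, 589.9 in fasted wild-type, 1026 in fed null and 990.5 in fed wild-type liver. Of 8 measured stellate cell and fibroblast markers 4 were higher and 0 lower, with sums over the 11 listed of 2946 units in fasted null, 1692 in fasted wild-type, 2215 in fed null and 1723 in fed wild-type liver. Of 8 measured endothelial markers 3 were higher and 1 lower, and 0 of 9 lymphocyte markers and 2 of 6 cholangiocyte markers were above the floor on any array. The part of these cells in the receptor differences was not tested, and in bulk liver fewer cells of a type and less RNA per cell cannot be told apart.

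In fed liver 4 of the 22 receptors were at least 1.5-fold apart between the genotypes. Pparg alone was higher in null mice, 4.55% of the receptors against 2.38% of all measured genes. Ppara, Nr1d2 and Nr4a1 were lower, 13.6% of the receptors against 2.12% of all measured genes. This count again includes Ppara, the disrupted gene. The median absolute difference of the receptors was 0.21 on the log2 scale, against 0.13 over all genes. Of the stellate cell and fibroblast markers 3 of 8 were higher in fed null liver (Col3a1, Pdgfrb and Vim, by 2.61-fold, 2.49-fold and 1.65-fold) and 0 lower. Of 6 measured markers of the exocrine pancreas 4 were higher and 0 lower, and of the 11 macrophage markers 0 were higher or lower. The part of these cells in the fed differences was not tested either.

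Between fasted and fed null liver 13 of the 22 receptors were at least 1.5-fold apart, and between fasted and fed wild-type liver 4. In null liver 7 receptors were higher after fasting (Rxrb, Nr1i2, Nr1i3, Nr1d1, Nr1d2, Rora and Nr4a1), 31.8% against 12.4% of all measured genes. Another 6 were lower in fasted null liver (Ppara, Nr1h3, Nr1h4, Nr5a2, Nr2f2 and Nr2f6), 27.3% against 18.0% of all measured genes. In wild-type liver Nr1h4 and Nr1i3 were higher after fasting, 9.09% against 8.20%, and Nr0b2 and Nr4a1 were lower, 9.09% against 8.29%. These wild-type shares were near those of all genes. The median absolute fasting difference of the receptors was 0.69 in null and 0.30 in wild-type liver on the log2 scale, against 0.33 and 0.20 over all measured genes in null and wild-type liver. Each array enters both a genotype and a fasting comparison, so counts in comparisons that share an array are not independent of each other.

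**Figure D1:**
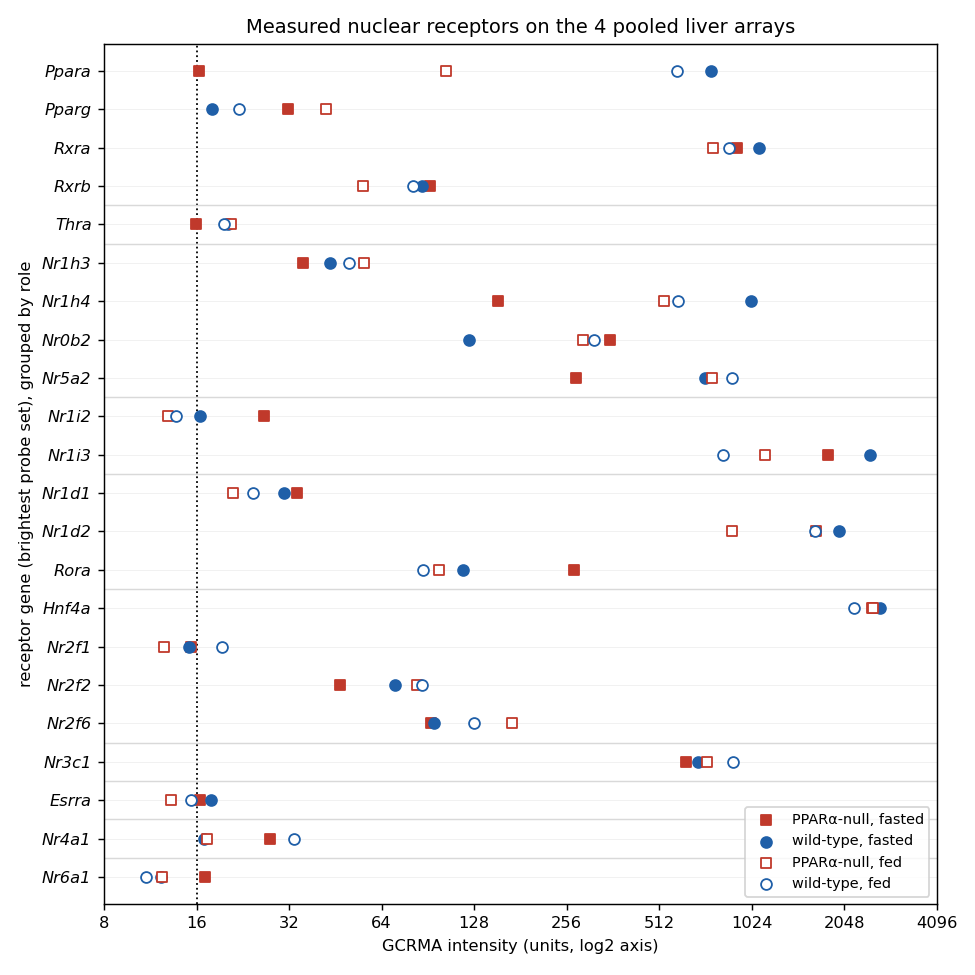
GCRMA intensity in units (log2 axis) of the 22 measured receptors, 1 symbol per pooled array, with squares for PPARα-null and circles for wild-type and filled symbols for fasted. A dotted line is drawn at the 16-unit floor. Nr1h4 and Ppara have their fasted null square far to the left of the other 3 symbols, at 153 and 16.3 units.

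**Figure D2:**
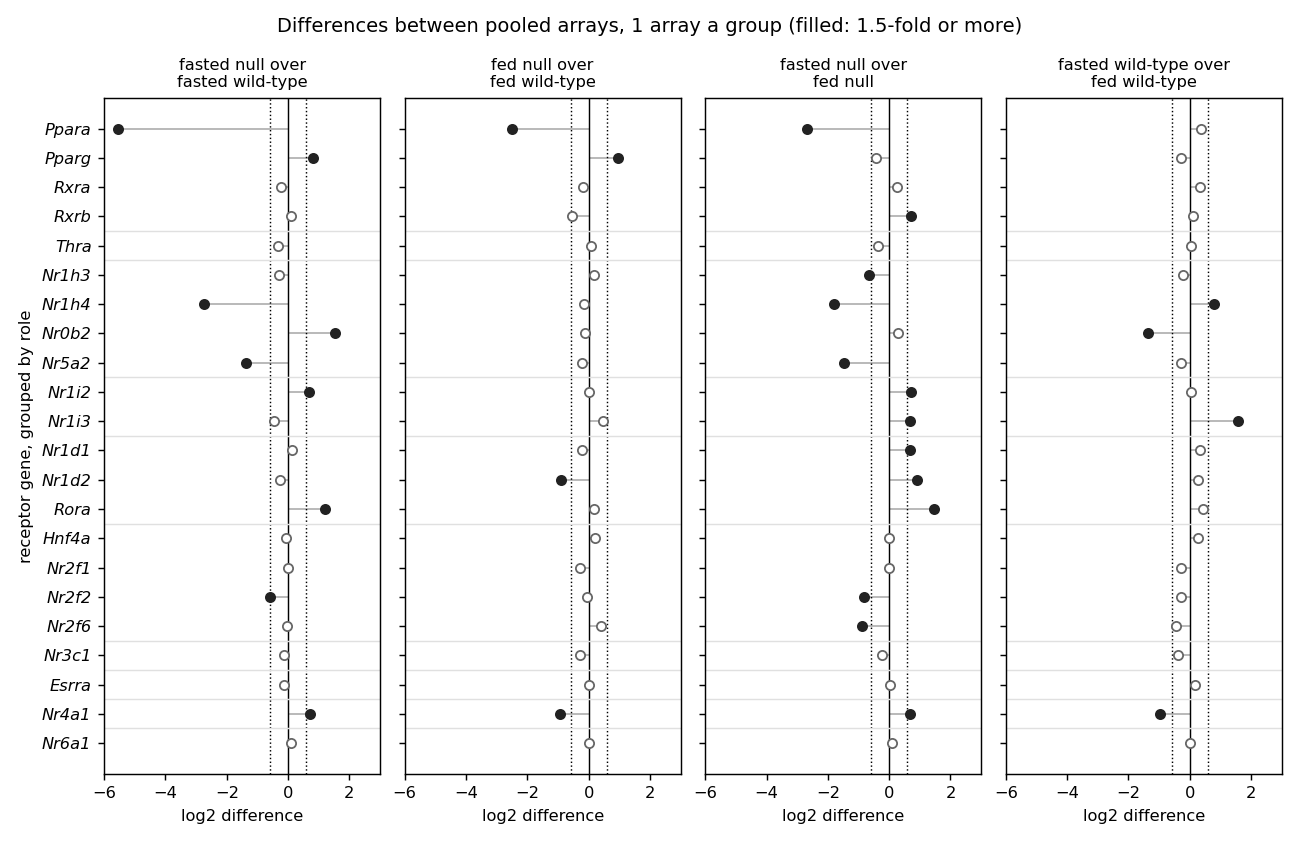
Log2 difference of each measured receptor in the 4 comparisons of pooled arrays, filled where it reached 1.5-fold (dotted lines). In fasted null over fed null liver 13 of 22 are filled, against 4 in fasted over fed wild-type liver. Of all measured genes 12.4% were higher and 18.0% lower in the null comparison, and 8.20% and 8.29% in the wild-type one. The scatter between probe sets of 1 gene was also wider in the null comparison (SD 0.46 against 0.29 on the log2 scale).

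Ppara, which encodes the fatty acid receptor that the null mice lack, had 16.3 units in fasted null liver, 755 units in fasted wild-type liver, 104 units in fed null liver and 583 units in fed wild-type liver. Both null arrays lay below both wild-type arrays, and the fasted null array was at the edge of the floor. The genotype difference was 46.3-fold after fasting and 5.61-fold in the fed state. The first of these depends on the floor, since the log2 difference was -5.53 as given and -3.56 with a floor of 64 units. Whether the Ppara probe set covers the part of the gene that was disrupted is not known here, so the signal of 104 units in fed null liver has no reading as transcript or background. Fasted over fed, Ppara was 6.38-fold lower in null liver and 1.29-fold higher in wild-type liver, and with a floor of 64 units the log2 difference in null liver was -0.70 in place of -2.67.

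Pparg encodes PPARγ, the adipogenic family member, which is low in normal liver. After fasting it had 31.6 units in null and 17.9 units in wild-type liver, a difference of 1.77-fold. In the fed state it had 42.2 units in null and 22.0 units in wild-type liver, a difference of 1.92-fold. It was the single receptor that was at least 1.5-fold higher in null liver in both feeding states, at intensities not far above the floor. Its single probe set carries a suffix for possible matches to several transcripts of the gene. Of 4 adipocyte markers Adipoq, Lep and Retn did not exceed the floor on any array. The other one, Fabp4, a fatty acid binding protein gene that macrophages also express, had 77.8 units in fasted null, 39.7 in fasted wild-type, 58.2 in fed null and 43.0 in fed wild-type liver. It was 1.96-fold higher in null than in wild-type fasted liver, and the part of such cells in the Pparg values was not tested. The remaining family member, Ppard, was at the floor on all arrays.

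The retinoid X receptors are the shared partners of the PPARs and of several receptors below. Rxra had 918 units in fasted null and 1081 units in fasted wild-type liver, and 768 and 863 units in fed null and fed wild-type liver. The widest Rxra difference in the 4 comparisons was 1.25-fold on this probe set. Rxrb had 92.1, 86.8, 55.8 and 80.7 units in fasted null, fasted wild-type, fed null and fed wild-type liver, so that the fed null array was the low one. It was 1.65-fold higher in fasted than in fed null liver and 1.08-fold higher in fasted than in fed wild-type liver, and with a floor of 64 units the difference in null liver was 0.52 on the log2 scale, under the threshold. Rxrg was at the floor on all arrays.

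The activity of PPARα is usually read from its target genes. Of 12 measured targets on a list of genes of fatty acid uptake, oxidation and ketogenesis, 1 was higher and 9 were lower in null than in wild-type fasted liver, with a median log2 difference of -0.96, against -0.01 over all measured genes. In this comparison 8.58% of all measured genes were higher and 13.6% lower, the shares to set beside the counts of this and the later lists. Cyp4a14, a fatty acid omega-hydroxylase, had 11.7 units in fasted null and 7278 units in fasted wild-type liver, at least 455-fold lower, and 356 units in fed null and 16.3 units in fed wild-type liver, where it was 21.8-fold higher in null mice. Ehhadh, a peroxisomal oxidation enzyme, had 1557 units in fasted null and 10629 units in fasted wild-type liver, and 2216 and 2279 units in fed null and fed wild-type liver. Slc25a20 and Cpt2, which carry and release acylcarnitine in mitochondria, were 6.79-fold and 6.33-fold lower in fasted null liver, and 4.87-fold and 2.89-fold lower in fed null liver. In fed null against fed wild-type liver the list was mixed, with 3 higher (Cyp4a14, Pdk4 and Acot1), 4 lower (Cpt1a, Cpt2, Angptl4 and Slc25a20) and a median of -0.18. Of all measured genes 2.38% were higher and 2.12% lower there. Fasted over fed, 6 of the 12 targets were higher and 2 lower in null liver (median 0.32), and 10 were higher and 0 lower in wild-type liver (median 1.08). Of all measured genes 12.4% were higher and 18.0% lower in fasted than in fed null liver, and 8.20% and 8.29% in wild-type liver.

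The receptors of sterol and bile acid control held 3 of the receptors that were furthest apart between fasted null and fasted wild-type liver on their brightest probe sets. The farnesoid X receptor FXR (Nr1h4) is the bile acid sensor of the hepatocyte. SHP (Nr0b2) lacks a DNA-binding domain and represses other receptors, among them LRH-1. LRH-1 (Nr5a2) is an orphan activator of Cyp7a1, whose product catalyses the rate-limiting step from cholesterol to bile acids, and of Cyp8b1. FXR is known to induce SHP.

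Nr1h4, on its single probe set, had 153 units in fasted null liver, 1017 units in fasted wild-type liver, 530.5 units in fed null liver and 589 units in fed wild-type liver. The fed arrays were close to each other, and the fasted arrays lay on either side of them. Nr1h4 was 6.65-fold lower in null than in wild-type fasted liver (log2 difference -2.73) and 1.11-fold lower in the fed state. Fasted over fed, it was 3.47-fold lower in null liver and 1.73-fold higher in wild-type liver. The fasting responses of null and wild-type liver thus differed by -2.58 on the log2 scale.

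Nr0b2, also with a single probe set, ran the other way among the fasted arrays, with 356 units in fasted null and 124 units in fasted wild-type liver. In the fed state it had 290.1 units in null and 314 units in wild-type liver. The fasted wild-type array was the low one of the 4. Nr0b2 was 2.88-fold higher in null than in wild-type fasted liver, and fasted over fed it was 1.23-fold higher in null liver and 2.54-fold lower in wild-type liver.

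Nr5a2 had 275 units in fasted null liver, 721 units in fasted wild-type liver, 760.1 units in fed null liver and 885 units in fed wild-type liver. The fasted null array was the low one, 2.62-fold below fasted wild-type and 2.76-fold below fed null liver. A second probe set had 29.1, 65.3, 71.2 and 79.0 units in the same order of groups, and another had 36.9, 58.0, 54.7 and 54.1 units. In fasted null over fasted wild-type liver the log2 differences of these 3 probe sets were -1.39, -1.17 and -0.65. In fasted over fed null liver they were -1.46, -1.29 and -0.57, the last under the threshold. Nr5a2 is also strongly expressed in the exocrine pancreas, and pancreatic enzyme transcripts differed between the arrays. The summed intensity of 7 pancreas markers was 153 units in fasted null, 145 in fasted wild-type, 963 in fed null and 673 in fed wild-type liver. Most of the fed sums came from Cela1, with 55.0, 53.9, 745 and 552 units in the same order. Of the 6 measured markers 4 were lower in fasted than in fed null liver, and 1, Cela1, in fasted than in fed wild-type liver. The part of pancreatic transcripts in the Nr5a2 values was not tested.

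The liver X receptor LXRα (Nr1h3), which senses oxysterols, had 35.5 units in fasted null, 43.3 in fasted wild-type, 56.0 in fed null and 49.9 in fed wild-type liver. It reached 1.5-fold only in fasted null over fed null liver, where it was 1.58-fold lower. Of 10 LXR targets 0 were higher and 3 lower in null than in wild-type fasted liver (median -0.04), and 0 were higher and 3 lower in fed null liver (median -0.26). Of all measured genes 13.6% were lower in the fasted and 2.12% in the fed comparison. The sterol exporter gene Abcg5 had 362 and 1099 units in fasted null and fasted wild-type liver and 263 and 932 units in fed null and fed wild-type liver. The desaturase gene Scd1 was 5.38-fold lower in fasted null liver, with 238 against 1279 units in fasted wild-type liver, and 1.31-fold lower in fed null liver. The study names Scd1 among genes already known as PPARα targets, so this list is not specific for LXR.

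Targets of FXR, SHP and LRH-1 were read beside their receptors. The list holds Cyp7a1 and Cyp8b1, whose activator LRH-1 is repressed by SHP, beside transporter genes. Its counts and median therefore have no single direction for FXR or SHP. Of 8 measured targets 0 were higher and 4 were lower in null than in wild-type fasted liver, with a median of -0.60. Between the same arrays 13.6% of all measured genes were lower. Cyp7a1 had 44.1 units in fasted null, 654 in fasted wild-type, 155 in fed null and 197 in fed wild-type liver. Like Nr1h4, it was lowest in fasted null and highest in fasted wild-type liver, 14.8-fold apart. Cyp8b1, the 12α-hydroxylase of bile acid synthesis, was 1.72-fold lower in null than in wild-type fasted liver, with 2027 and 3494 units. The canalicular bile salt exporter Abcb11 was 1.64-fold lower and the phospholipid exporter Abcb4 1.68-fold lower. Fasted over fed wild-type liver, where Nr1h4 was 1.73-fold higher, 3 of the 8 targets were higher (Cyp7a1, Cyp8b1 and Abcb4). In that comparison 1 was lower, Abcb11, by 3.49-fold. Of all measured genes 8.20% were higher and 8.29% lower there. In fed null against fed wild-type liver 0 of the 8 targets were higher and 1 was lower, with a median of -0.25. There 2.12% of all measured genes were lower.

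The promoters of these 3 receptors are shown because all 3 genes were more than 1.5-fold apart between the fasted arrays under every alternative run, and because LRH-1 is known to bind the promoter of Nr0b2. For the single, bright probe sets of Nr1h4 and Nr0b2 several alternatives could not change the value, among them the floor settings and the mean of probe sets. The sequences are the 250 bases before the annotated start, from RefSeq on GRCm38.p6. In the promoters of Nr1h4 (chr10:89506659-89506908, minus strand) and Nr5a2 (chr1:136960449-136960698, minus strand, 1 of 2 annotated promoters), capitals mark the nuclear receptor half-site AGGTCA on either strand. In the promoter of Nr0b2 (chr4:133553126-133553375, plus strand), capitals mark the E-box CACGTG and the core TCAAGG of the LRH-1 site.
Nr1h4: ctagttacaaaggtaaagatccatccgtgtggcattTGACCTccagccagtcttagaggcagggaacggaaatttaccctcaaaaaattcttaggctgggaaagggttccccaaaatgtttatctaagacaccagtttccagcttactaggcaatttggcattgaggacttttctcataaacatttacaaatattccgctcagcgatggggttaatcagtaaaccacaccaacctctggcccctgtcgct
Nr5a2: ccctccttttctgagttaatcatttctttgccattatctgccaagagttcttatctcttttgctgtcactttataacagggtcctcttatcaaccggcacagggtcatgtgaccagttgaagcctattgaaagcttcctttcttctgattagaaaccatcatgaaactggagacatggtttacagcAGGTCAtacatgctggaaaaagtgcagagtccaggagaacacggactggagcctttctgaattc
Nr0b2: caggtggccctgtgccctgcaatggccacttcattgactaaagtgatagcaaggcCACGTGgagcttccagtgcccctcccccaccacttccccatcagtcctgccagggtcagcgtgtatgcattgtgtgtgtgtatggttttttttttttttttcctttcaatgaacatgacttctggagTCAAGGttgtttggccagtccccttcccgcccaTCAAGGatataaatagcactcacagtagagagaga
The half-site of Nr1h4 lies on the opposite strand, at -214 to -209 from the start, and that of Nr5a2 at -64 to -59. The E-box of Nr0b2 lies at -195 to -190, and the TCAAGG cores lie at -68 to -63 and at -35 to -30. Motifs were searched on both strands in 300 bases, 250 before and 50 after the start. AGGTCA was found in 16.3% of 32851 promoters and at 6 of the 20 measured receptors with a promoter in the table (Nr1d2, Nr1h4, Nr5a2, Nr6a1, Pparg and Rxra). Those 20 receptors have 29 promoters, so the count per receptor is not on the same footing as the share per promoter. CACGTG was in 7.15% of promoters and at 2 receptors (Nr0b2 and Nr1i3), and TCAAGG, searched after the sequence had been seen, was in 14.4% and at 2 receptors (Nr0b2 and Rxrb). The 8-base site CAAGGTCA was in 1.56% and the REV-ERB and ROR site TAGGTCA in 2.61% of promoters, and neither was at any of these receptors. TGACGTCA, the cyclic AMP response element, was in 1.79% of promoters and at 1 receptor, Nr6a1. The longer direct and inverted repeats DR1, IR1 and DR4, bound by RXR heterodimers, were in 0.0396%, 0.00913% and 0.0152% of promoters as exact matches and at 0 receptors. A match is a run of letters and not a shown binding site.

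The constitutive androstane receptor CAR (Nr1i3) and the pregnane X receptor PXR (Nr1i2) sense foreign compounds and induce cytochromes P450. Nr1i3 had 1819 units in fasted null, 2479 in fasted wild-type, 1129 in fed null and 823 in fed wild-type liver. In both genotypes the fasted array was above the fed one, by 1.61-fold in null liver and 3.01-fold in wild-type liver. Compared with wild-type liver, null liver was 1.36-fold lower after fasting and 1.37-fold higher when fed, and neither difference reached the threshold. Nr1i2 was dim, with 26.5 units in fasted null and 16.5 units in fasted wild-type liver and both fed arrays at the floor. It was 1.61-fold higher in null than in wild-type fasted liver, but a second probe set, with 19.9 units in fasted null liver and the other arrays at the floor, differed by 0.32 on the log2 scale. Fasted over fed, Nr1i2 was at least 1.66-fold higher in null liver, a call that the second probe set (0.32) and the mean of the probe sets (0.52) did not reach. Vdr, the vitamin D receptor, was at the floor on all arrays.

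Of 7 measured targets of CAR and PXR, 4 were higher and 0 lower in null than in wild-type fasted liver, with a median of 0.65. Between the same arrays 8.58% of all measured genes were higher. Cyp2b10, the classic CAR target, had 5574 units in fasted null liver, 125 in fasted wild-type, 62.5 in fed null and 84.7 in fed wild-type liver. The fasted null array alone was high, 44.6-fold above fasted wild-type and 89.2-fold above fed null liver, although Nr1i3 itself was 1.36-fold lower in null than in wild-type fasted liver. Alas1, the first enzyme of heme synthesis, was 2.47-fold higher in fasted null liver, with 6931 units against 2810 units in fasted wild-type liver. Fasted over fed wild-type liver, Alas1 was also 3.29-fold higher, and Cyp2b10 1.48-fold. Between the fasted genotypes Cyp3a11 (1.34-fold higher), Cyp2c29 (1.47-fold higher) and Ces2a (1.20-fold lower) did not reach the threshold. The listed genes thus did not share the pattern of Cyp2b10. The estrogen sulfotransferase gene Sult1e1 was higher in null mice in both states, with 1636 and 79.6 units in fasted null and fasted wild-type liver and 371 and 19.6 units in fed null and fed wild-type liver. In the fed state 1 of the 7 was higher and 0 were lower in null mice (median -0.01), where 2.38% of all measured genes were higher.

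**Figure D3:**
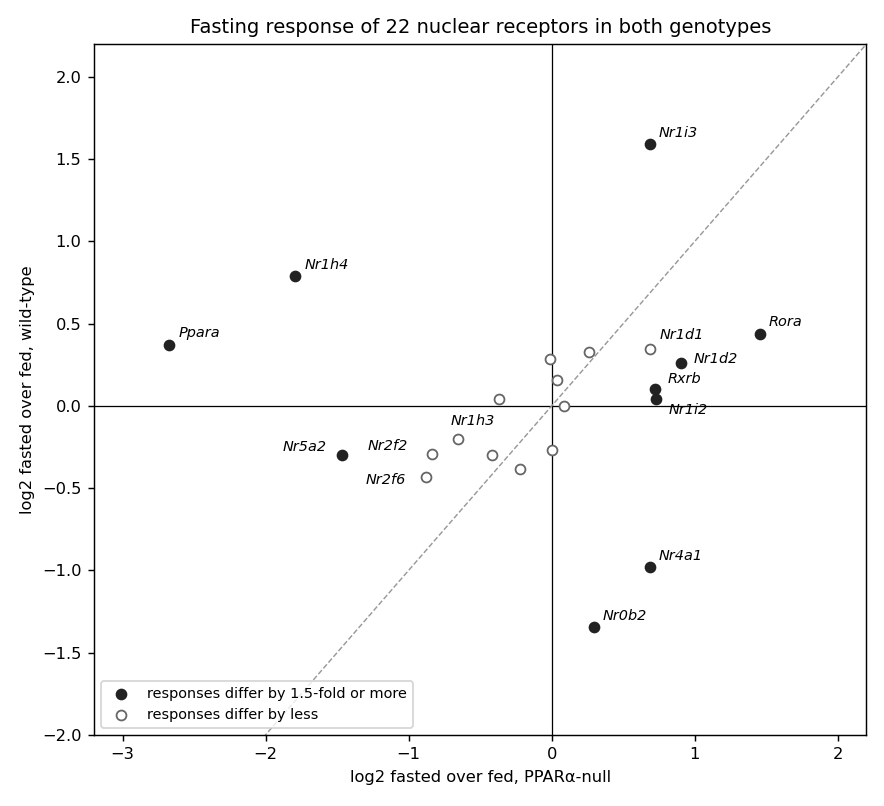
Fasting difference (log2 fasted over fed) of the 22 measured receptors in PPARα-null (horizontal) and wild-type liver (vertical), filled where the responses of the genotypes differed by 1.5-fold or more; the dashed line marks equal responses. Nr1h4 (-1.79 in null, 0.79 in wild-type) and Nr4a1 (0.69 in null, -0.98 in wild-type) passed 1.5-fold in opposite directions.

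The plot of the fasting responses sets both genotypes against each other. In the fasting response of null minus that of wild-type liver, 6 receptors were at least 1.5-fold higher (Rxrb, Nr0b2, Nr1i2, Nr1d2, Rora and Nr4a1), 27.3% of the receptors against 9.14% of all measured genes. A further 4 were lower (Ppara, Nr1h4, Nr5a2 and Nr1i3), 18.2% against 14.9% of all measured genes. The lower ones again include the disrupted gene Ppara. The median absolute difference of the responses was 0.50 over the receptors and 0.28 over all measured genes. Nr1h4 and Nr4a1 were the receptors that passed the threshold in both genotypes and in opposite directions, whereas Nr1i3 passed it in both genotypes in the same direction. With 1 array per group, the difference of responses could not be tested. For 3 of these receptors a second probe set did not show the difference of the responses. It was 0.03 for Rora, on a probe set about as bright as the one used (mean log2 of 6.98 and 7.01), 0.32 for Nr1i2 and -0.05 for Nr1d2, the last 2 on probe sets at or near the floor.

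The REV-ERBs and RORs are clock receptors that compete for the same DNA elements, with REV-ERBs repressing and RORs activating genes such as Arntl. The fed mice were taken as the dark period ended and the fast ran from lights on, so fed and fasted mice were taken at about the same clock time. All 3 measured clock receptors were at least 1.5-fold higher in fasted than in fed null liver, with a median log2 difference of 0.90. The corresponding count in wild-type liver was 0 of 3, with a median of 0.34. Of all measured genes 12.4% were higher in fasted than in fed null liver and 8.20% in fasted than in fed wild-type liver. The counts depend on the probe set of Rora, since a second one passed the threshold in both genotypes, at 0.68 in null and 0.65 in wild-type liver.

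REV-ERBβ (Nr1d2) had 1653 units in fasted null, 1972 in fasted wild-type, 885 in fed null and 1645 in fed wild-type liver. The fed null array was the low one, 1.86-fold below fed wild-type liver, and a second probe set lay at or near the floor on all arrays. REV-ERBα (Nr1d1) was dim, with 34.0 units in fasted null, 30.9 in fasted wild-type, 21.1 in fed null and 24.3 in fed wild-type liver, and it was 1.61-fold higher in fasted than in fed null liver. RORα (Rora) had 270.3 units in fasted null, 118 in fasted wild-type, 98.5 in fed null and 87.1 in fed wild-type liver. Here the fasted null array was the high one, 2.29-fold above fasted wild-type and 2.74-fold above fed null liver. A second Rora probe set had 193, 131, 120.4 and 83.9 units in the same order and differed by 0.55 on the log2 scale between the fasted genotypes, just under the threshold. Rorb was at the floor.

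Of 8 measured genes on a list of clock genes and outputs tied to these receptors, 4 were higher (Arntl, Cry1, Nfil3 and Per2) and 2 were lower (Clock and Dbp) in null than in wild-type fasted liver, with a median of 0.53. Between these arrays 8.58% of all measured genes were higher and 13.6% lower. Nfil3, a repressor with a circadian rhythm, had 176 units in fasted null, 36.2 in fasted wild-type, 81.4 in fed null and 58.5 in fed wild-type liver. Dbp, an activator that binds the same sites, was lower in null mice in both states, with 127.9 and 262 units in fasted null and fasted wild-type liver and 56.0 and 208 units in fed null and fed wild-type liver. Elovl3, an elongase under REV-ERB and ROR control, differed with feeding, with 207 and 238 units in fasted null and fasted wild-type liver against 1246 and 1100 units in fed null and fed wild-type liver.

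HNF4α (Hnf4a), an orphan receptor that maintains the identity of hepatocytes, was bright and near constant on its brightest probe set. It had 2525 units in fasted null, 2676 in fasted wild-type, 2545 in fed null and 2198 in fed wild-type liver, and no difference exceeded 1.22-fold. The other 3 probe sets of the gene were higher on the fasted than on the fed arrays in both genotypes. Their log2 differences of fasted over fed null liver were 0.67, 0.66 and 0.63, each past the threshold, against -0.01 for the brightest, so the probe sets of Hnf4a disagree on this comparison. In fasted over fed wild-type liver the same 3 differed by 0.42, 0.59 and 0.45, of which 0.59 was past the threshold, against 0.28 for the brightest. All 4 stayed below the threshold between the genotypes, at -0.08, 0.21, 0.03 and 0.40 in fasted null over fasted wild-type liver. Of 10 HNF4α targets 0 were higher and 1 lower in null than in wild-type fasted liver (median 0.10). The lower one was Mttp, the lipid transfer gene of lipoprotein assembly, at 1.74-fold lower. The study names Mttp among genes already known as PPARα targets, so this list is not specific for HNF4α. In this comparison 8.58% of all measured genes were higher and 13.6% lower.

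The COUP transcription factors and EAR2 are orphan receptors that often repress transcription at elements shared with HNF4α and RXR heterodimers. COUP-TFII (Nr2f2) had 46.8 units in fasted null, 70.6 in fasted wild-type, 83.5 in fed null and 86.4 in fed wild-type liver. It was 1.51-fold lower in null than in wild-type fasted liver, at the edge of the threshold, and 1.78-fold lower in fasted than in fed null liver. With a floor of 64 units these log2 differences were -0.14 and -0.38, both under the threshold. A second probe set had 30.9, 53.1, 63.8 and 84.3 units in the same order. EAR2 (Nr2f6) had 92.4 units in fasted null, 94.6 in fasted wild-type, 170.3 in fed null and 127.6 in fed wild-type liver, so both fasted arrays lay below both fed arrays. It was 1.84-fold lower in fasted than in fed null liver and 1.35-fold lower in fasted than in fed wild-type liver. Nr2f1 (COUP-TFI) was above the floor only in fed wild-type liver, at 19.3 units, and Hnf4g, Nr2c1 and Nr2c2 were at the floor on all arrays.

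**Figure D4:**
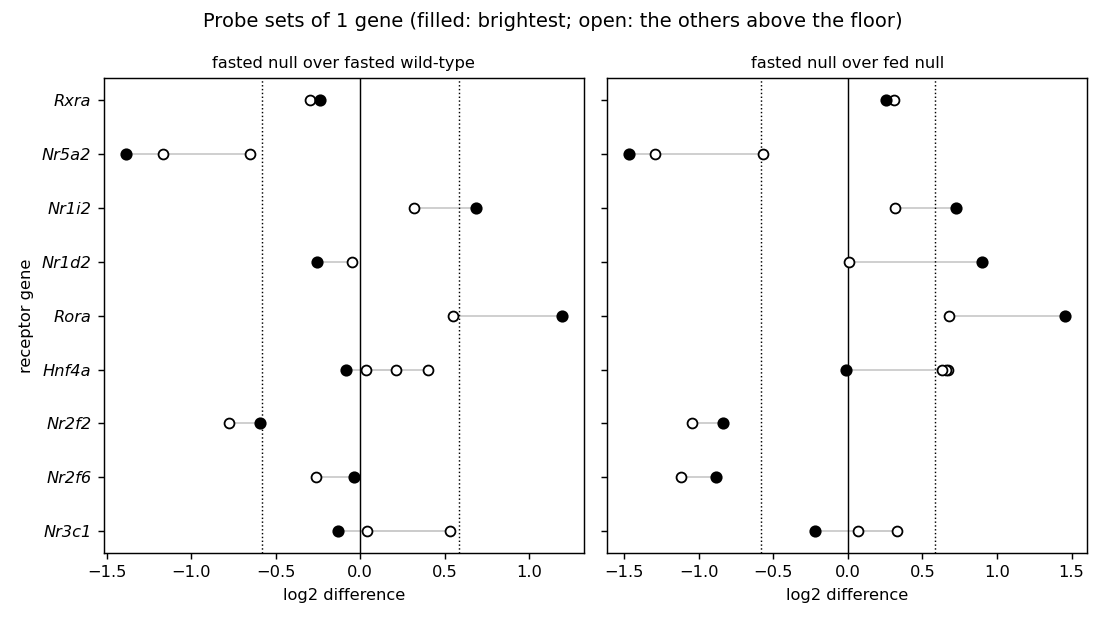
Log2 differences of every probe set above the floor for the receptors with several (filled, the brightest; open, the others), in fasted null over fasted wild-type and in fasted over fed null liver. All 3 probe sets of Nr5a2 lie below -0.58 between the fasted genotypes, and the 4 of Hnf4a spread between -0.01 and 0.67 in fasted over fed null liver.

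The glucocorticoid receptor GR (Nr3c1), which mediates the response of liver to corticosteroids, had 626 units in fasted null, 685 in fasted wild-type, 730.2 in fed null and 894 in fed wild-type liver. On this brightest probe set both fasted arrays lay below both fed arrays, and the widest difference in the 4 comparisons was 1.30-fold. A second probe set had another order, with 157 units in fasted null, 109 in fasted wild-type, 125 in fed null and 130.2 in fed wild-type liver, and differed by 0.53 on the log2 scale between the fasted genotypes, under the threshold. Of 11 measured GR targets 6 were higher and 1 was lower in null than in wild-type fasted liver, with a median of 0.61, and fasted over fed 8 were higher and 1 lower in null liver (median 1.17) and 5 higher and 1 lower in wild-type liver (median 0.37). Of all measured genes 8.58% were higher and 13.6% lower between the fasted genotypes. Fasted over fed these shares were 12.4% and 18.0% in null and 8.20% and 8.29% in wild-type liver. The GR target that was lower between the fasted genotypes was Tsc22d3, with 798 units in fasted null and 1406 in fasted wild-type liver (1.76-fold). Sgk1, a kinase gene induced by glucocorticoids, had 1347 units in fasted null, 238 in fasted wild-type, 225 in fed null and 296 in fed wild-type liver. The fasted null array was the high one. Mt2, a metallothionein gene, was 21.5-fold higher in null than in wild-type fasted liver, with 9714 and 453 units. Dusp1 and Igfbp1 were 3.42-fold and 1.88-fold higher. These genes also respond to cytokines, metals or insulin, so the list is not specific for GR. The estrogen receptors Esr1 and Esr2 and the progesterone receptor gene Pgr were at the floor on all arrays.

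NUR77 (Nr4a1) is an immediate early receptor with no known classical ligand that is induced by hormones such as glucagon. It had 27.8 units in fasted null, 16.8 in fasted wild-type, 17.3 in fed null and 33.3 in fed wild-type liver. Of its 4 values the fasted wild-type and the fed null ones were at the edge of the floor. It was therefore 1.65-fold higher in null mice after fasting and 1.93-fold lower in null mice in the fed state, and it was called in all 4 comparisons with no intensity above 33.3 units. Nr4a2 and Nr4a3 were at the floor. Of 10 other immediate early genes 5 were higher and 1 lower in null than in wild-type fasted liver (median 0.34), and 0 were higher and 4 lower in fed null than in fed wild-type liver (median 0.00). Of all measured genes 8.58% were higher and 13.6% lower in the fasted comparison, and 2.38% and 2.12% in the fed one. Fasted over fed, 4 were higher (Atf3, Myc, Klf4 and Klf6) and 5 lower in null liver (median -0.60), and 0 were higher and 5 lower in wild-type liver (median -0.73). The 5 lower ones were Fos, Jun, Junb, Egr1 and Ier2 in both genotypes. Of all measured genes 12.4% were higher and 18.0% lower in fasted than in fed null liver, and 8.20% and 8.29% in wild-type liver. Jun, a subunit of the AP-1 factor, had 235 units in fasted null, 102 in fasted wild-type, 509 in fed null and 467 in fed wild-type liver.

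The receptors for thyroid hormone and retinoic acid were dim or at the floor. Thra, the thyroid hormone receptor α gene, did not exceed the floor in fasted null liver and had 20.2 units in fasted wild-type, 20.7 in fed null and 19.7 in fed wild-type liver. Thrb, which encodes the main thyroid hormone receptor of liver, was at the floor on all arrays, as were Rara, Rarb and Rarg, so the array gave no reading of these genes. Their target genes were measured. Of 7 thyroid hormone targets 1 was higher and 3 were lower in null than in wild-type fasted liver (median -0.10). Between these arrays 8.58% of all measured genes were higher and 13.6% lower. Thrsp, a lipogenic gene, was 6.79-fold higher with 2995 units against 441 units in fasted wild-type liver, and the deiodinase gene Dio1 was 1.87-fold lower. Of 3 retinoic acid targets Tgm2 was 5.10-fold higher and Dhrs3 3.87-fold lower in fasted null liver (median 0.01).

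The remaining orphan receptors gave little signal. Esrra, which encodes ERRα, a regulator of mitochondrial genes, had 16.4 units in fasted null and 17.9 in fasted wild-type liver, with both fed arrays at the floor. Of 9 ERRα targets 0 were higher and 2 lower in null than in wild-type fasted liver (median -0.03), among them the cytochrome c gene Cycs, 1.67-fold lower. The list is short, and 13.6% of all measured genes were lower between the same arrays. Nr6a1 was above the floor only in fasted null liver, at 17.0 units. Esrrb, Esrrg, Nr0b1 and Nr5a1 were at the floor on all arrays. The highest intensity of any of the 20 receptors at the floor was 14.02 units, and no statement on their regulation can be drawn from these arrays.

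**Figure D5:**
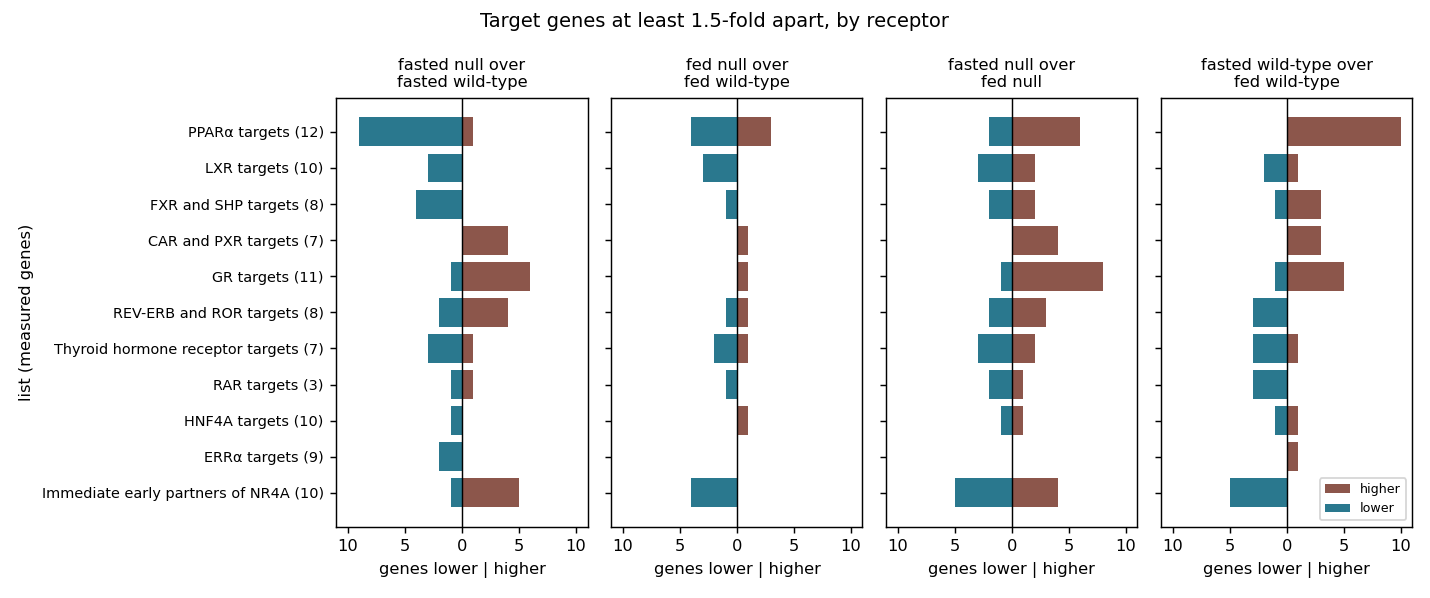
Number of measured target genes at least 1.5-fold higher (right of 0) or lower (left of 0) in each comparison, by the receptor whose targets they are, with the number measured in brackets. In fasted null over fasted wild-type liver 9 of 12 PPARα targets were lower and 4 of 7 CAR and PXR targets were higher. Of all measured genes 13.6% were lower and 8.58% higher in that comparison.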

How the data were processed

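Liver RNA of 4 groups was pooled (5 mice a group) and hybridized to MOE430A arrays, 1 a group. The authors deposited linear intensities from GCRMA (the submitters' processing notes name version 2.20). This method corrects background by probe sequence, normalizes quantiles and summarizes probe sets. The sources used here do not give the set of arrays that GCRMA was run on. The sources differ on the RNA amount labelled and on pool size, and the series' design text is followed.

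Here the intensities were set to a floor of 16 units (log2 of 4) and converted to log2, and the probe set with the highest mean stood for a gene. Levels of different probe sets were compared only to choose a probe set, sum marker genes and call probe sets bright or dim. Differences of 1.5-fold or more were called, without a test. Precision is limited by the number of arrays. Probe sets listing several genes were left out, and 0 of 71 receptor symbols differed from RefSeq (GRCm38.p6).

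The receptors and the lists of targets and markers were chosen with earlier results of these data known. From each list up to 4 genes were named, those with the largest fasted genotype difference among genes at 128 units or more on the brighter fasted array. Other target and marker genes that the text names, to list the members behind a count, were chosen after their values were seen.

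The alternatives were a 2-fold threshold, no floor, a floor of 64 units, quantile normalization, centring on bright probe sets, lowess removal of an intensity trend (fraction 0.3), the mean of a gene's probe sets, omission of probe sets with a multiple-transcript suffix, and each other probe set. The procedure was tested on simulated data, with changes of 2-fold or more planted in bright probe sets only. That test does not cover calls near 1.5-fold or probe sets near the floor. Python 3.11.15, numpy 2.4.6, pandas 2.3.3, scipy 1.17.1, statsmodels 0.14.6 and matplotlib 3.10.9 were used.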

Additional observations from a re-analysis of the deposited data

Results flagged for a closer look

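For 2 receptors fasting went in opposite directions in the genotypes, each past 1.5-fold. Nr1h4, the bile acid receptor FXR, was lower in fasted than in fed null liver (log2 difference -1.79) and higher in fasted than in fed wild-type liver (0.79), a difference of the responses of -2.58. Nr4a1, the immediate early receptor NUR77, was higher in fasted than in fed null liver (0.69) and lower in fasted than in fed wild-type liver (-0.98), a difference of the responses of 1.67, with 2 of its 4 intensities at the edge of the floor. With 1 array per group neither difference was tested.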

How the results depend on the processing

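No single receptor changed direction among the called values under any alternative that was run. With a 2-fold threshold, fasted null over fasted wild-type liver had 2 receptors higher, fed null over fed wild-type 0 higher and 1 lower, fasted over fed null 1 higher and 3 lower, and fasted over fed wild-type 1 higher and 1 lower. With a floor of 64 units, 2 receptors were higher in fasted null over fasted wild-type, 0 higher in fed null over fed wild-type, 3 higher in fasted over fed null and 1 lower in fasted over fed wild-type liver. Averaging probe sets left 3 higher in fasted null over fasted wild-type liver. Without suffixed probe sets, which leaves Pparg, Nr1i3 and Nr1h3 with none, 0 were higher in fed null over fed wild-type and 1 in fasted over fed wild-type liver. The other 50 receptor counts stayed within 1.5 times. With the floor of 64 units only 13 receptors were measured. The share of all measured genes was computed at the main setting only. Whether receptors exceeded that share under the alternatives was therefore not examined.

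Nr2f2 in fasted null over fasted wild-type liver lost its call in 5 of 8 alternatives, for example at -0.50 after quantile normalization and -0.44 after centring. Nr1i2 (0.51) and Rora (0.54) lost it in the same comparison with the mean of probe sets. Nr1h3 in fasted over fed null liver lost it after quantile normalization (-0.54) and centring (-0.53). In fasted null over fasted wild-type liver Ppara lay between -5.53 and -3.56, Nr1h4 between -2.73 and -2.58, Nr0b2 between 1.53 and 1.68, and Nr5a2 between -1.39 and -0.65. Depth cannot be read from arrays, and the 9 measured receptors below 64 units on all arrays rest on signal near background. Of the counts in the target and marker lists, 1198 stayed within 1.5 times and 146 moved. In fasted null over fasted wild-type liver the higher macrophage markers fell from 8 of 11 to 4 at 2-fold. They fell to 3 of 7 with a floor of 64 units. The higher stellate cell markers fell from 4 to 2 under both settings, and the higher REV-ERB and ROR targets from 4 to 1. With 1 array per group no alternative measures the spread between mice.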
